A study of Rattus norvegicus with 12 samples.

Results

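A set of 7 genes that build, crosslink, cut or regulate the vessel wall matrix was followed in rat coronary arterioles: Eln (elastin, ENSRNOG00000001469), Lox (lysyl oxidase, ENSRNOG00000014426), Fn1 (fibronectin, ENSRNOG00000014288), Dcn (decorin, ENSRNOG00000004554), Mmp2 (a gelatinase, ENSRNOG00000016695), Timp1 (an inhibitor of metalloproteinases, ENSRNOG00000010208) and Tgfb1 (a growth factor, ENSRNOG00000020652). They were chosen by Ensembl ID as a set of matrix genes, with earlier results of these data known. All 7 IDs were among the 24600 in the count table. All 7 also passed the filter on low counts, which left 12496 genes for testing.

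The arterioles, small resistance vessels of the heart, were dissected near the apex from side branches of the left anterior descending artery of female Fischer-344 rats. Young control rats were 3 months old and untreated, and old control rats were 24 months old and untreated, with no sham injection named. Old SVF-treated rats were of the same age and had received 10000000 stromal vascular fraction (SVF) cells from fat through the tail vein at 23 months, 4 weeks ahead of vessel collection. SVF is the mixed cell suspension left when fat tissue is digested and its fat cells are removed. Old SVF-treated and young control rats differed in both age and injection, which cannot be told apart when these groups are compared. Each group had 4 libraries of polyadenylated RNA, and each RNA sample pooled vessels of its group. The labels do not say that the libraries of a group came from different rats. P-values then measure only the spread between these RNA samples, which may be technical.

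Elastin is secreted as a soluble monomer, laid down on microfibrils and made insoluble by lysyl oxidase, which oxidises lysines of elastin and collagen so that they crosslink. Fibronectin links cells to this matrix through integrins, and decorin is a small proteoglycan that coats collagen fibrils and can bind TGF-beta. Mmp2 encodes an enzyme that degrades gelatin, elastin and basement membrane collagen, Timp1 encodes a secreted inhibitor of such enzymes, and TGF-beta 1 is a known inducer of matrix genes in fibroblasts and smooth muscle cells.

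Library totals ranged from 4068021 to 10821485 counts, and the 7 genes together held 0.394% to 0.811% of a library. Counts per library for the 7 genes ran from 281 (Timp1, young control replicate 4) to 29335 (Eln, young control replicate 1). Old control replicate 4 and old SVF-treated replicate 2 had the lowest median rank correlations with the other libraries, 0.945 and 0.939, and values without this pair are given where they change a call. Values below are CPM, read counts brought to a common library size with TMM scaling. Because gene lengths were not used, levels are compared between groups and not between genes. In pooled vessels, fewer cells of a type and less RNA per cell cannot be told apart, and marker genes of arterioles and of other cell types were not examined because the IDs of other genes could not be paired with symbols.

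Eln was the member with the clearest difference by age. Its level was 3464, 2185, 2830 and 2694 CPM in young control replicates 1 to 4. Old control replicates 1 to 4 had 1255, 1679, 1843 and 2062 CPM, and the old SVF-treated libraries had 1644, 1607, 1376 and 1596 CPM. Every old library, treated or not, lay below every young library, and the nearest pair was old control replicate 4 and young control replicate 2.

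Mean Eln was 2793 ± 526 CPM for the young, 1710 ± 341 CPM for the old control and 1556 ± 122 CPM for the treated libraries (SD, n = 4 each). Old controls were 1.63-fold below young controls, or -0.71 in log2 fold change (SE 0.17, 95% CI -1.07 to -0.35). This ranked 28 among the 12496 genes by p-value and missed the threshold after correction over all of them (edgeR adjusted p = 0.226). The libraries of these groups did not overlap, which was the case in the lower direction for 1.62% of all tested genes.

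Old SVF-treated rats were 1.80-fold below young controls in Eln, or -0.84 in log2 fold change (SE 0.17, 95% CI -1.21 to -0.48), at rank 15. The edgeR adjusted p was 0.0635, just above the threshold of 0.05. In this direction the libraries of 2.22% of tested genes did not overlap. Both comparisons use the same young libraries, so they are not independent.

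The call on Eln turned on the test. DESeq2 called it lower in old controls (log2 fold change -0.70, adjusted p = 0.00661), where it called 0.240% of tested genes, and in old SVF-treated rats against young controls (-0.83, adjusted p = 0.000374), where it called 0.456%. A weighted limma voom fit, which gives each library a quality weight, also called it in both (adjusted p = 0.0335 and 0.0157), with 0.120% and 0.232% of genes called. With edgeR, the SVF-treated against young call was made with no filter on low counts (adjusted p = 0.0247), without old control replicate 1 (0.0201) and without the pair of libraries of lowest correlation (0.0421). Leaving out any 1 of the 12 libraries left the log2 fold change between -0.81 and -0.58 in old controls and between -0.95 and -0.73 in SVF-treated rats.

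A comparison added after the data were seen set the mean of both old groups against young controls. Eln was lower by edgeR, with a log2 fold change of -0.78 (SE 0.15, 95% CI -1.08 to -0.47, adjusted p = 0.0281), and was the 1 member of 7 called there, against 0.112% of all tested genes. This call was lost without any 1 of 7 libraries, namely replicates 1 and 4 of the young, 2 and 3 of the old control and 1, 3 and 4 of the treated group, where the edgeR adjusted p ranged from 0.0523 to 0.181. It was kept without any 1 of the other 5.

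Between the old groups, the Eln libraries overlapped. The log2 fold change, SVF-treated minus old control, was -0.14 (SE 0.17, 95% CI -0.50 to 0.22, edgeR adjusted p = 0.999). The interval runs from 1.41-fold lower to 1.17-fold higher in treated rats.

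**Figure D1:**
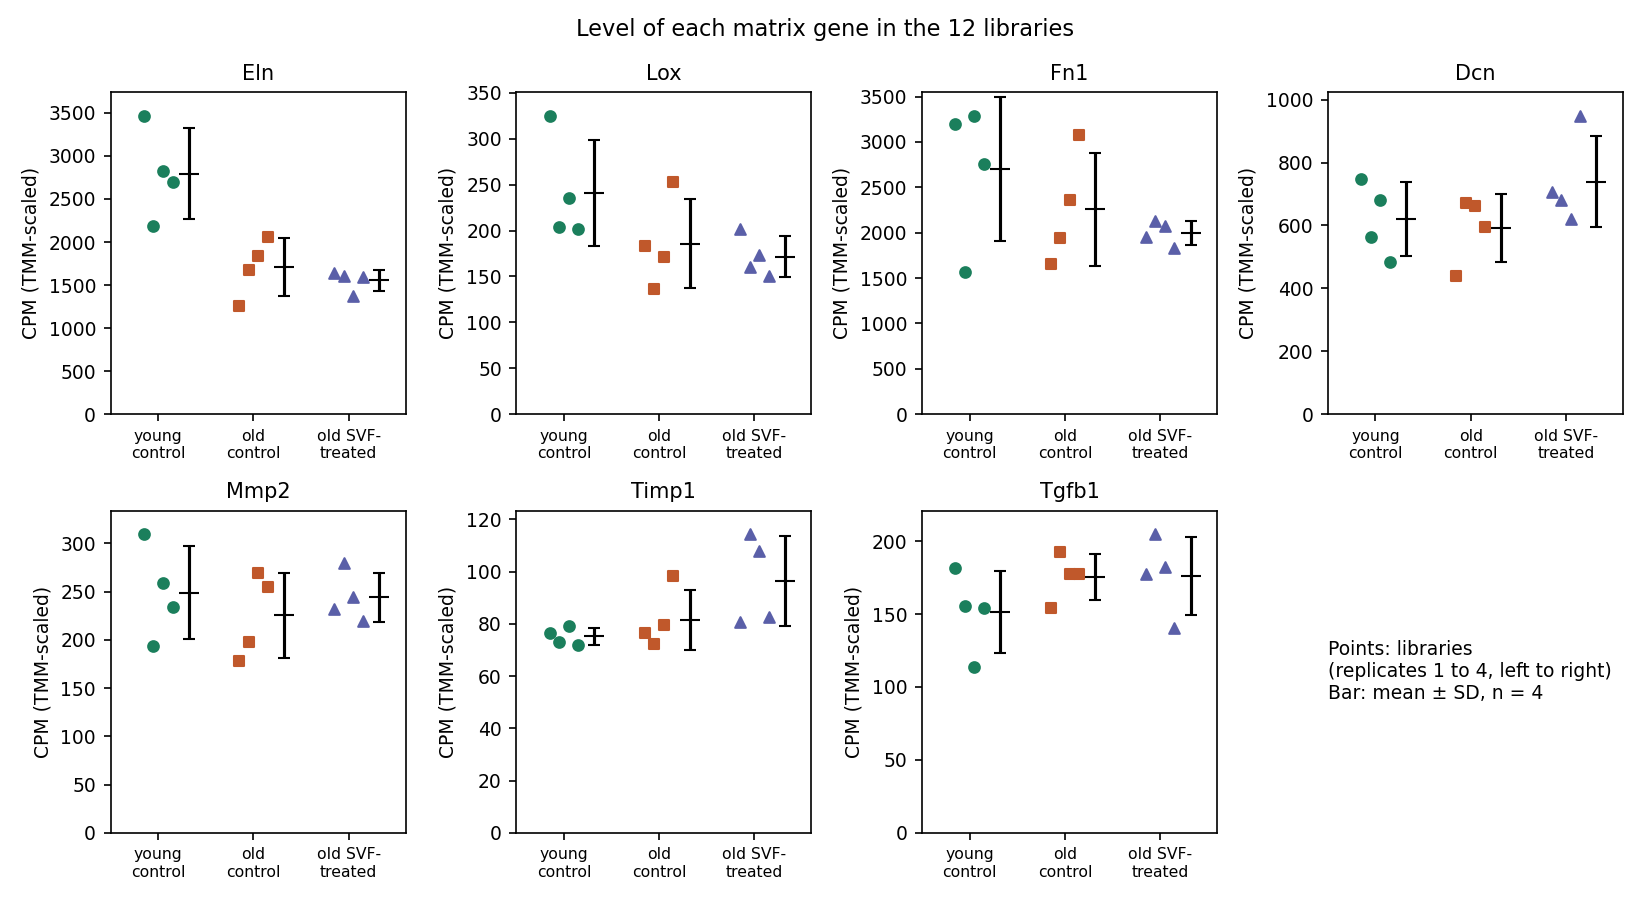
Level of each of the 7 matrix genes (y axis, TMM-scaled CPM, from 0) in the 3 groups (x axis), with 1 point per library, replicates 1 to 4 from left to right, and the mean ± SD of 4 libraries as a bar. The 8 old libraries of Eln lie at or below 2062 CPM and the 4 young ones at or above 2185 CPM, while the groups of Fn1, Mmp2 and Tgfb1 overlap.

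Lox, whose enzyme crosslinks elastin, had means in the same order as Eln. The levels in young control replicates 1 to 4 were 325, 204, 235 and 201 CPM. They were 183, 136, 172 and 252 CPM in old controls and 202, 161, 173 and 150 CPM in old SVF-treated rats. Old control replicate 4 reached into the young range, and SVF-treated replicate 1 lay just above the lowest young library.

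The Lox mean was 241 ± 57.8 CPM for young, 186 ± 48.7 CPM for old control and 171 ± 22.4 CPM for treated libraries (SD, n = 4). Old controls differed from young by -0.38 on the log2 scale (SE 0.18, 95% CI -0.76 to 0.0018), short of the threshold after correction (edgeR adjusted p = 0.935). SVF-treated rats differed from young by -0.49 (SE 0.18, 95% CI -0.87 to -0.11, edgeR adjusted p = 0.573). The interval of this second difference leaves out 0 when taken for Lox alone, and the value does not hold up once all 12496 genes are accounted for.

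Fn1, the adhesive glycoprotein of the set, varied more within the control groups than between groups. Young controls had 3193, 1566, 3287 and 2752 CPM in replicates 1 to 4, and old controls had 1651, 1941, 2363 and 3079 CPM. The old SVF-treated libraries were close together at 1954, 2133, 2070 and 1828 CPM. All 4 treated libraries fell inside the range of the old controls and inside that of the young controls.

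The mean of Fn1 was 2699 ± 791 CPM for young, 2259 ± 620 CPM for old control and 1996 ± 134 CPM for treated libraries (SD, n = 4). Against young controls, the log2 fold change was -0.26 in old controls (SE 0.21, 95% CI -0.69 to 0.18, edgeR adjusted p = 1.00) and -0.44 in SVF-treated rats (SE 0.21, 95% CI -0.87 to 0.0018, edgeR adjusted p = 0.700). Against old controls, the SVF-treated value was -0.18 (95% CI -0.61 to 0.26), and without old control replicate 4 it was 0.0069.

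Dcn, the fibril-coating proteoglycan, had its highest mean in SVF-treated rats. Its levels were 749, 565, 679 and 484 CPM in young control replicates 1 to 4, and 440, 671, 661 and 596 CPM in old controls. They were 705, 682, 622 and 948 CPM in SVF-treated rats. Replicate 4 of the treated group was the highest of all 12 libraries, and the other 3 treated libraries lay within the young range.

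Mean Dcn was 619 ± 118 CPM for young, 592 ± 107 CPM for old control and 739 ± 144 CPM for treated libraries (SD, n = 4). SVF-treated minus old control gave 0.32 on the log2 scale (SE 0.18, 95% CI -0.043 to 0.68), short of the threshold after correction (edgeR adjusted p = 0.999). With 1 library left out this value ran from 0.18, without treated replicate 4, to 0.39. Old control minus young control gave -0.066 (SE 0.18, 95% CI -0.43 to 0.30). That small age value changed sign without young control replicate 1 (0.039) or old control replicate 1 (0.059).

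Mmp2, the protease of the set, had means within 1.11-fold of each other in each of the 3 comparisons. The young control levels were 309, 193, 259 and 234 CPM, the old control levels 178, 198, 270 and 255 CPM, and the SVF-treated levels 232, 279, 245 and 220 CPM. Means were 249 ± 48.5, 225 ± 44.1 and 244 ± 25.7 CPM in that order (SD, n = 4). The log2 fold changes were -0.15 for old control against young (95% CI -0.49 to 0.19), 0.11 for SVF-treated against old control (95% CI -0.22 to 0.45) and -0.030 for SVF-treated against young (95% CI -0.37 to 0.31). Each interval spans 0, and a change of up to 1.40-fold lower in old controls lies within the first.

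Timp1, the inhibitor, was steady in young controls, at 76.5, 73.1, 79.2 and 72.0 CPM in replicates 1 to 4. Old controls had 76.5, 72.2, 79.5 and 98.2 CPM, of which replicate 4, and by a small margin replicate 3, lay above the young range. SVF-treated rats had 80.5, 114, 108 and 82.6 CPM. All 4 treated libraries were above all 4 young libraries; the nearest were treated replicate 1 and young replicate 3.

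The mean of Timp1 was 75.2 ± 3.28 CPM for young, 81.6 ± 11.5 CPM for old control and 96.3 ± 17.2 CPM for treated libraries (SD, n = 4). SVF-treated rats were 1.28-fold above young controls (log2 fold change 0.35, SE 0.16, 95% CI 0.026 to 0.68), short of the threshold after correction (edgeR adjusted p = 0.673). Non-overlap in the higher direction was seen for 2.43% of tested genes in this comparison, in which age and injection cannot be told apart. Old controls differed from young by 0.12 (SE 0.16, 95% CI -0.21 to 0.45), a comparison in which 1.87% of genes did not overlap in the higher direction and Timp1 did. SVF-treated minus old control gave 0.24 (SE 0.16, 95% CI -0.091 to 0.56, edgeR adjusted p = 0.999).

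Tgfb1, the growth factor, had nearly equal means in the old groups. Its levels were 182, 156, 114 and 154 CPM in young controls, 154, 192, 177 and 178 CPM in old controls and 177, 205, 183 and 140 CPM in SVF-treated rats. Young control replicate 3 was the lowest library of the 12, and the other 3 young libraries lay within the range of the old controls.

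Tgfb1 averaged 151 ± 28.0 CPM for young, 175 ± 15.9 CPM for old control and 176 ± 26.7 CPM for treated libraries (SD, n = 4). Old control minus young control was 0.21 on the log2 scale (SE 0.16, 95% CI -0.11 to 0.53) and SVF-treated minus young was 0.22 (SE 0.16, 95% CI -0.11 to 0.54). SVF-treated minus old control was 0.0071 (SE 0.16, 95% CI -0.32 to 0.33). None passed the correction (edgeR adjusted p between 0.833 and 1.00).

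Promoters of 2 of the 7 genes, Timp1 and Tgfb1, were matched by symbol in the RefSeq table of build GRCr8, and these are shown because they were the ones matched. Both genes had means above the young level in both old groups. The 250 bases before each start site are shown 5′ to 3′ for the gene's own strand, Timp1 from chrX:3771123-3771372 (minus strand) and Tgfb1 from chr1:90324062-90324311 (plus strand). Both strands were searched for the AP-1 motif TGANTCA, the GC box GGGCGG and the TATA box TATAAA, and matches are in capitals. No match overlapped another.
Timp1: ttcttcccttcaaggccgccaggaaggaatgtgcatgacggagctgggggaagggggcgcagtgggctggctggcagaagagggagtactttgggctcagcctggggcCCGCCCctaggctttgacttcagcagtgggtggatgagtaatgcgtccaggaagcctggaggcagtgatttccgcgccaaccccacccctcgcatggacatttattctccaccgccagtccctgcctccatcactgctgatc
Tgfb1: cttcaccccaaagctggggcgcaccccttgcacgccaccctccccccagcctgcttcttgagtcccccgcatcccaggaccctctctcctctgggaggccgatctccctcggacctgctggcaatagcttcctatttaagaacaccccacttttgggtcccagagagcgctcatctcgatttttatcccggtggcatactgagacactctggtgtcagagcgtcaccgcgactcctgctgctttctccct

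The Timp1 window held 1 match in these letters, the GC box on the opposite strand, 142 to 137 bases before the start. Variants of the motifs were not searched for, so a window without a match may still hold one. The Tgfb1 window held none of the 3 motifs in these letters. Among 33469 RefSeq windows of this length, 30.5% held the GC box, 6.34% the AP-1 motif and 12.9% the TATA box. The windows were 61.2% and 60.0% G or C. A match is a description of the sequence only.

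Read as a set, 0 of the 7 genes were called by edgeR in old control against young control, where 0.0400% of all tested genes were called. The count was also 0 of 7 in SVF-treated against young control, where 0.0640% were called. In that comparison 889 genes, or 7.11% of those tested, had an unadjusted edgeR p under 0.05, Eln, Lox and Timp1 among them. In old control against young control 667 genes, or 5.34%, had an unadjusted edgeR p under 0.05, with Eln the 1 member among them. The median log2 fold change of the 7 genes was -0.15 in old controls against young and -0.030 in SVF-treated against young, beside -0.0091 and -0.0067 over all tested genes. In old controls 5 of the 7 estimates were below 0, all but those of Timp1 and Tgfb1, and 51.3% of all tested genes were.

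SVF treatment of old rats gave no call in the set. In old SVF-treated against old control edgeR called 0 of 12496 genes, a share of 0%. By edgeR, 367 genes (2.94%) had an unadjusted p under 0.05, none of them a member. DESeq2 and the weighted limma voom fit likewise called 0. No member had treated libraries clear of the old controls, while 1.14% of tested genes did in the lower and 1.27% in the higher direction. The median log2 fold change of the 7 genes was 0.0071, beside -0.0033 over all genes. Estimates ran from -0.18 (Fn1) to 0.32 (Dcn), and the 95% intervals of the 7 genes together covered -0.61 to 0.68, the upper end of which is a 1.61-fold higher level (Dcn).

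**Figure D2:**
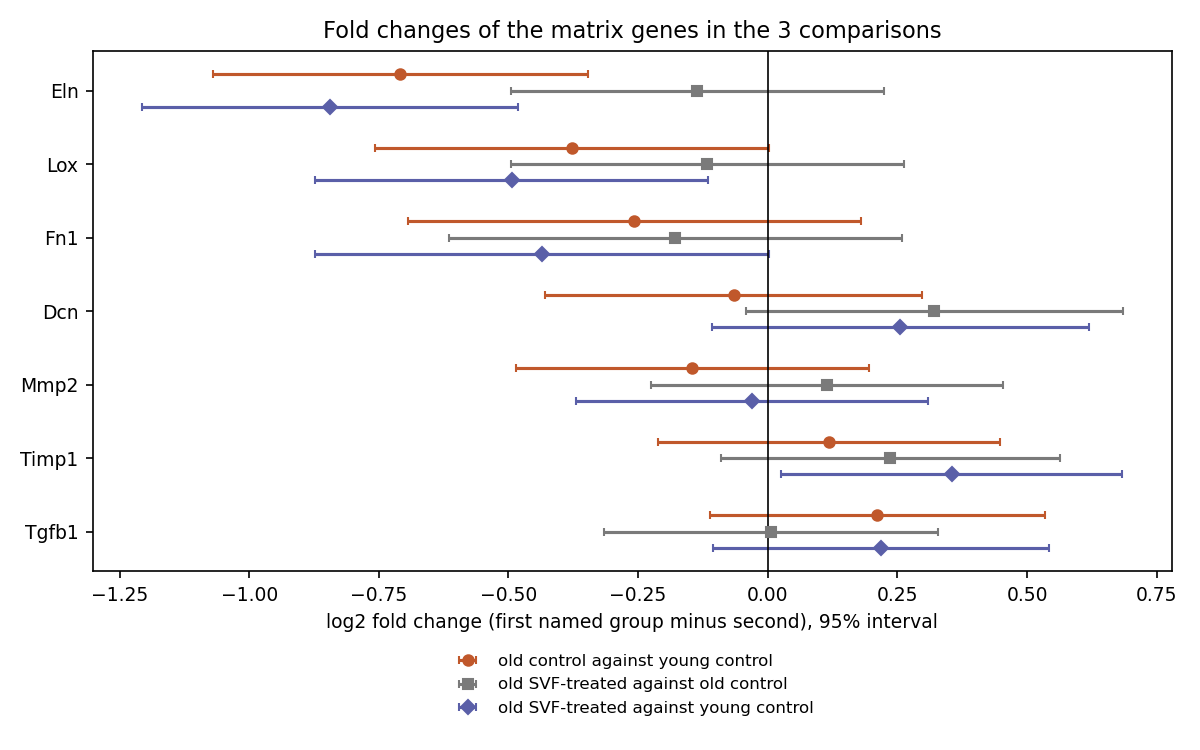
Log2 fold change (x axis, first named group minus second) of each matrix gene (y axis) in the 3 comparisons, with 95% intervals from the edgeR fit of 12 libraries. The 2 Eln intervals against young controls, -1.07 to -0.35 and -1.21 to -0.48, lie furthest from 0, and every interval of SVF-treated against old control crosses 0.

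Spread within a group differed between the members. The coefficient of variation (CV, the SD as a percent of the mean) of Fn1 was 29.3% among young, 27.5% among old control and 6.73% among treated libraries. That of Eln was 18.8%, 20.0% and 7.83% in the same order. Lox and Mmp2 also had their lowest CV in the treated group, at 13.1% and 10.5%, while Timp1 had its lowest in young controls (4.36%) and Dcn and Tgfb1 in old controls (18.0% and 9.04%).

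Of 2301 tested genes with a mean over all 12 libraries between that of Timp1, 84.4 CPM, and that of Fn1, 2318 CPM, 35.9% had their lowest CV in SVF-treated rats, and median CVs were 13.4%, 14.9% and 13.6% in young, old control and SVF-treated libraries. The treated CV of Fn1 was 0.245 of its lower control CV, a share that 1.61% of these genes equalled or went below. For Eln the share was 0.415, equalled or passed by 6.56% of genes. Counting error alone would give a CV of 0.739% to 2.64% for Eln, Lox, Fn1, Dcn and Mmp2 and at most 4.58% among all 7, for Timp1 in young controls, where the observed CV was 4.36%. These CVs rest on 4 libraries each and the differences between them were not tested.

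Some members moved together from library to library. Across the 12 libraries, the log2 CPM of Fn1 and Mmp2 were correlated with Pearson's r = 0.76 (permutation p = 0.00474, adjusted p = 0.0466 over 21 pairs of members) and Spearman's rho = 0.83 (permutation p = 0.00134, adjusted p = 0.0281). Without the 2 libraries farthest from the median of Fn1, r was 0.69. Fn1 ranked 59 among the tested genes in its correlation with Mmp2.

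Eln and Fn1 had r = 0.74 (permutation p = 0.00666, adjusted p = 0.0466) and rho = 0.64 (permutation p = 0.0279, adjusted p = 0.195). Eln and Lox had r = 0.75 (permutation p = 0.00512, adjusted p = 0.0466) and rho = 0.66 (permutation p = 0.0243, adjusted p = 0.195). Without the 2 libraries farthest from the Eln median, young control replicates 1 and 3, r was 0.52 and 0.45. Leaving these out narrows the range of Eln and takes away part of its difference by age, which by itself tends to lower r. How far the relations rest on those libraries cannot be told from this. Neither rank correlation passed after adjustment. Lox ranked 48 and Fn1 ranked 51 among all tested genes in likeness to Eln.

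Because the Eln means differ by age, these pairs were also read as deviations from the group means. Eln and Fn1 then had r = 0.82 (permutation p = 0.00122, adjusted p = 0.00854) and rho = 0.72 (permutation p = 0.0110, adjusted p = 0.0769). Fn1 and Mmp2 had r = 0.85 (permutation p = 0.00038, adjusted p = 0.00735) and rho = 0.87 (permutation p = 0.00039, adjusted p = 0.00819). Eln and Mmp2 had r = 0.83 (permutation p = 0.0007, adjusted p = 0.00735) and rho = 0.81 (permutation p = 0.00203, adjusted p = 0.0213), beside r = 0.52 (permutation p = 0.0832, adjusted p = 0.349) and rho = 0.43 (permutation p = 0.161, adjusted p = 0.442) over the levels themselves. Eln and Lox had r = 0.54 (permutation p = 0.0678, adjusted p = 0.178) and rho = 0.50 (permutation p = 0.105, adjusted p = 0.246). Without the 2 libraries farthest from the median of the x measure, these 4 values of r were 0.60, 0.72, 0.66 and 0.71. These p-values make no allowance for the fitted group means. Within the 8 old libraries alone r was 0.83 for Eln and Fn1 and 0.69 for Fn1 and Mmp2. It was 0.57 for Eln and Mmp2 and 0.35 for Eln and Lox there, and none passed after adjustment. Without the 2 old libraries farthest from the median of the x measure, these values were 0.36, 0.78, 0.076 and -0.075. Young control replicate 2 was the lowest of its group, and old control replicate 1 the lowest of its own, in each of Eln, Fn1 and Mmp2.

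None of the 18 other pairs passed the adjustment over the levels themselves. The nearest was Lox and Fn1, with r = 0.67 (permutation p = 0.0154, adjusted p = 0.0808) and rho = 0.50 (permutation p = 0.0992, adjusted p = 0.442), or r = 0.59 without the 2 libraries farthest from the median of Lox. Timp1 and Tgfb1 had r = 0.41 (permutation p = 0.183, adjusted p = 0.427) and rho = 0.32 (permutation p = 0.308, adjusted p = 0.589), or r = 0.040 without the 2 libraries farthest from the Timp1 median.

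**Figure D3:**
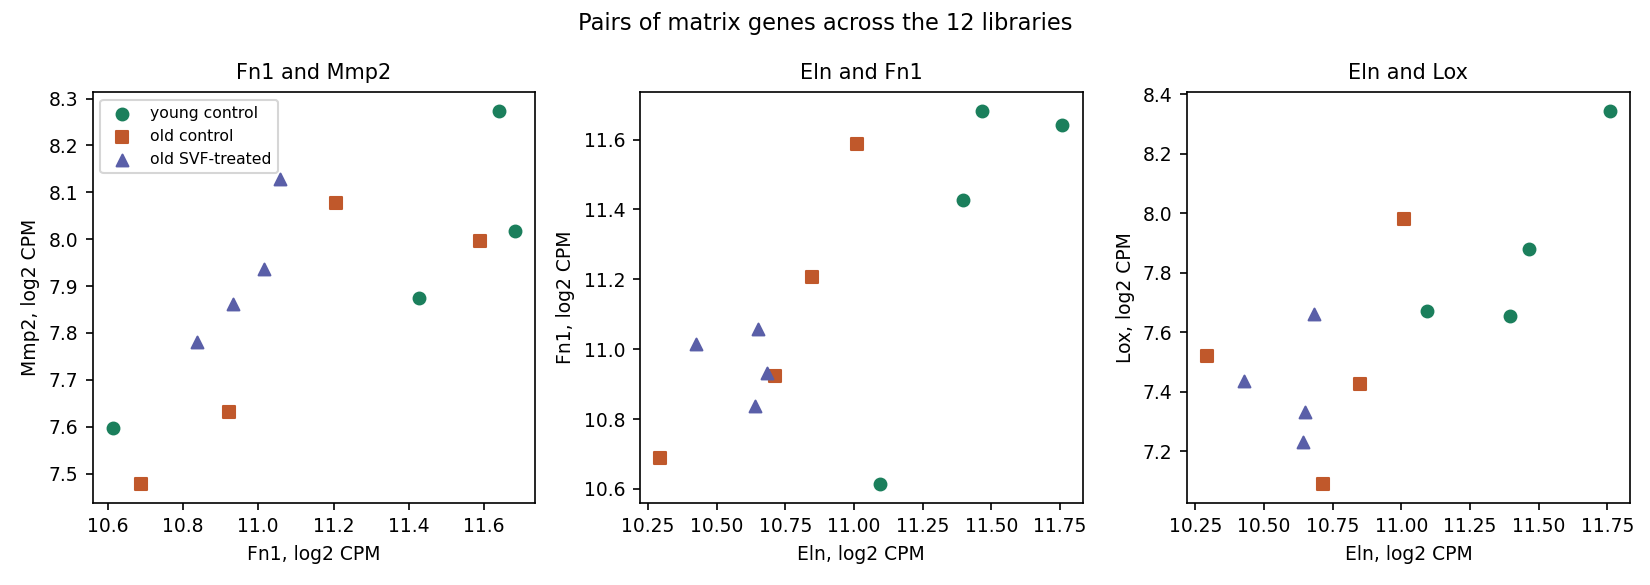
Log2 CPM of 3 pairs of matrix genes (x and y axes), 1 point per library with the shape and colour of its group: Fn1 and Mmp2 (r = 0.76), Eln and Fn1 (r = 0.74), Eln and Lox (r = 0.75). Fn1 and Mmp2 run together inside each group, and the young libraries lie to the right in both Eln panels.

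The balance between members was described by ratios of CPM within each library, for all 21 pairs and with no test. Each ratio is in arbitrary units, as lengths were not used, and only its change between groups is read. The ratio of Eln to Dcn set all 3 groups apart: it was 4.63, 3.87, 4.17 and 5.56 in young rats. It was 2.85, 2.50, 2.79 and 3.46 in old controls and 2.33, 2.36, 2.21 and 1.68 in SVF-treated rats. Means were 4.56 ± 0.739, 2.90 ± 0.402 and 2.15 ± 0.314 (SD, n = 4). Of 10570 tested genes with a count in every library, 67 (0.634%) gave a ratio to Eln with this full order, and 31.2% gave one in which old controls lay below young controls.

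The ratio of Eln to Mmp2, elastin to a protease that can cut it, was close to constant in young controls at 11.2, 11.3, 10.9 and 11.5. It was 7.05, 8.47, 6.83 and 8.08 in old controls and 7.08, 5.75, 5.62 and 7.27 in SVF-treated rats. Old libraries of both kinds lay below every young library, and the old groups overlapped.

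In old control against young, 5 of the 21 ratios did not overlap, 4 of them with Eln and the other the ratio of Lox to Timp1. Over all 10570 genes, 31.2% of Eln ratios and 5.95% of Lox ratios had old controls below young without overlap. The ratio of Lox to Timp1, of a crosslinking enzyme to a protease inhibitor, averaged 3.20 ± 0.702 for young, 2.25 ± 0.298 for old control and 1.83 ± 0.480 for treated libraries. In SVF-treated against young, 8 of the 21 did not overlap, 5 with Eln and the other 3 with Lox. Over all 10570 genes, 45.2% of Eln ratios and 14.1% of Lox ratios had treated libraries below young ones without overlap, so the count of Eln ratios largely restates the Eln difference.

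Between the old groups, 2 of 21 ratios did not overlap, Eln to Dcn and Fn1 to Mmp2. Over all 10570 genes, 1.63% of Eln ratios and 1.27% of Fn1 ratios had treated libraries below old controls without overlap. The ratio of Fn1 to Mmp2 was 9.28, 9.80, 8.76 and 12.1 in old controls and 8.41, 7.63, 8.46 and 8.32 in SVF-treated rats, against a range of 8.10 to 12.7 in young controls. Its treated libraries lay below the old controls, and 3 of the 4 lay inside the young range. The ratio of Mmp2 to Timp1, protease to inhibitor, averaged 3.30 ± 0.573 for young, 2.76 ± 0.454 for old control and 2.56 ± 0.266 for treated libraries, and its groups overlapped in every comparison.

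**Figure D4:**
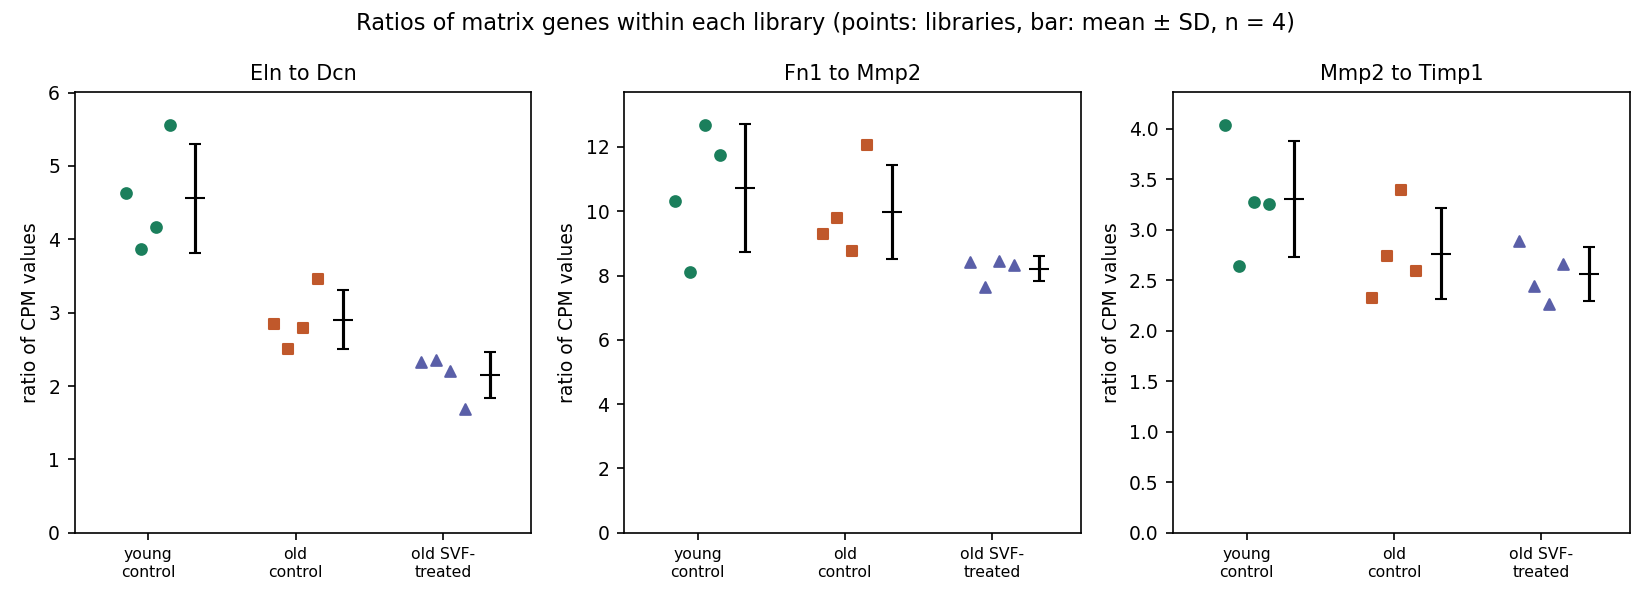
Ratio of CPM values within each library (y axis, from 0) for Eln to Dcn, Fn1 to Mmp2 and Mmp2 to Timp1 in the 3 groups (x axis), points for libraries and bars for the mean ± SD of 4. Eln to Dcn steps down from 4.56 to 2.90 to 2.15 with no overlap, and Mmp2 to Timp1 overlaps throughout.

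By Pearson correlation of log2 CPM over the 12 libraries, the tested gene most like Eln was ENSRNOG00000012840 (r = 0.95), with 3063 ± 450 CPM for young, 2350 ± 255 CPM for old control and 2335 ± 218 CPM for treated libraries (SD, n = 4). The gene most like Fn1 was ENSRNOG00000007338 (r = 0.93), with 719 ± 210, 514 ± 126 and 480 ± 73.5 CPM. The nearest to Timp1 was ENSRNOG00000018400 (r = 0.93), with 31.4 ± 5.35, 32.4 ± 7.30 and 42.7 ± 9.12 CPM, and the nearest to Tgfb1 was ENSRNOG00000018230 (r = 0.89), with 12.1 ± 3.37, 15.5 ± 2.08 and 14.8 ± 4.75 CPM. For Mmp2, Dcn and Lox the highest correlations were 0.94, 0.89 and 0.87. No nearest gene was itself one of the 7. In all, 18 tested genes had r above 0.8 with Eln and 70 with Fn1.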

How the data were processed

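The authors deposited a table of read counts per Ensembl gene for 12 libraries of rat coronary arterioles. Per the submitters' processing notes, FastQC 0.10.1, HTSeq 0.10.0 and genome build rn6 were used; the aligner, annotation release and strand setting are not given in the sources used here. Per the labels, at least 5 microvessels were pooled for each RNA. No file paired IDs with symbols (0 of 24600 matched the reference table), so the pathway and marker lists that had been planned were not run, and the members were found by their IDs.

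Genes with a count of at least 10 in enough libraries (edgeR 4.0.16, filterByExpr, total of at least 15) were tested, 12496 in all, holding 99.9% of counts. Counts were scaled by TMM and fitted in 1 model of 3 groups with the robust quasi-likelihood F test, with Benjamini-Hochberg adjustment over all tested genes and a threshold of 0.05. DESeq2 1.42.0 and limma 3.58.1 voom with sample quality weights (R 4.3.3) were alternatives, beside other scalings and filters, a replicate block and each library left out. Log2 CPM used a prior count of 2. Correlations used 100000 permutations (scipy 1.17.1). The fitting code was tested on simulated data. All p-values are two-sided.

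The named genes were the 7 members and, for each, the tested gene of highest correlation over the libraries. The members and lists were chosen with earlier results of these data known. Replicate numbers are shared between groups, but 0 of 12 same-numbered pairs of libraries had a correlation of deviations over 0.1, so the numbers were not used as pairs.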

Additional observations from a re-analysis of the deposited data

How the results depend on the processing

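Eln kept its direction in every comparison under every alternative run, and 16 of the 21 member comparisons did. Eln was the 1 member called by DESeq2 and by weighted voom in both comparisons with young controls, against 0 by edgeR; the cause was not tested. Genes called in old control against young control were 30 by DESeq2 and 15 by voom against 5, and 0 to 12 with 1 library left out. In SVF-treated against young control they were 57 by DESeq2, 29 by voom, 15 with no filter, 3 with only the 2 groups fitted and 32 without the pair of libraries of lowest correlation against 8, and 0 to 22 with 1 library left out, where 0 or 1 member was called; 1 member was called with no filter and without that pair. With both old groups against young control, 36 genes were called without that pair against 14, and 4 to 39 with 1 library left out, with 0 or 1 member. With the replicate block, 7, 0 and 2 genes were called in the 3 comparisons and no member was. Eln then had adjusted p-values of 0.356 and 0.102 (edgeR) against young controls. Of 12 libraries, 5 correlated best with a library of their own number, a count with no share expected without pairing beside it. The correlation of deviations was at most 0.0903 in the 12 same-numbered pairs.

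Signs turned only where the 95% CI of the value spanned 0. In SVF-treated against old control, Lox was 0.0077 by voom and 0.10 without the low-correlation pair (-0.24 to 0.066 with 1 library left out), and Tgfb1 was -0.00042 with the replicate block, -0.0099 by voom and -0.062 without the pair (-0.073 to 0.10). Leaving out 1 library gave Fn1 -0.30 to 0.0069 there, Dcn -0.16 to 0.059 in old control against young control, and Mmp2 -0.19 to 0.034 in both old groups against young control. Mmp2 in SVF-treated against young control was 0.0069 with library totals alone and -0.14 to 0.091 with 1 library left out. Of 21 correlations, 0 passed within the 8 old libraries against 3 over all 12. The both-old comparison, the fit without the low-correlation pair and the correlations in old libraries were chosen after seeing the data. Counting error alone gave CVs below those observed between libraries, except for Timp1 in young controls (4.58% against 4.36%).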
